A study of Mus musculus with 18 samples.

Results

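The short-tail mRNA fraction of cortex and striatum was compared between CPEB4 KO and WT mice. It comprises the WASH arrays of 2 CPEB4 KO and 2 WT animals, 4 of the 18 arrays in the series, chosen by their labels. Cortex and striatum were dissected together at 6 weeks of age from 2 WT mice, 2 CPEB4 KO mice and 2 CPEB4 GT/+ mice, which carry 1 copy of the GT allele. Per the labels' protocols, poly(A) RNA was bound to poly(U) agarose and released first with 25% formamide (WASH, short tails) and then with 90% formamide (ELUTED, long tails), and total RNA of the same animals was kept as INPUT. How the KO and GT alleles were made, the strain and the sex of the animals are not given in the sources used here. Values are log2 probe set levels, scaled so that a gene is read relative to the rest of its array, so a difference of 1 is a doubling and a difference in the total amount of short-tailed RNA was not measured. In bulk tissue, fewer cells of a type and less RNA per cell cannot be told apart.

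CPEB4 belongs to the cytoplasmic polyadenylation element binding proteins, which bind U-rich elements in the untranslated end of mRNAs and recruit enzymes that lengthen or shorten the poly(A) tail. Tail length bears on how well an mRNA is translated and how long it lasts, and in neurons the family is known for controlling mRNAs that are stored and activated later. A transcript can be higher or lower in a short-tail fraction because there is more or less of it in all, or because its share with short tails differs, and the INPUT array of the same animal was used to set these side by side.

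The arrays were alike within the fraction. Across 12822 genes, which are not independent replicates, pairs of WASH arrays correlated at r = 0.9903 to 0.9958. The standard deviation of the difference between both animals of a genotype was 0.186 to 0.197 in WASH, and 0.336 in INPUT of CPEB4 KO against 0.173 to 0.195 in INPUT of the other genotypes, so the CPEB4 KO pair stood apart in INPUT. Markers of the labelled tissue were present: the WASH levels were 12.06 to 12.29 for Camk2a of excitatory neurons, 10.86 to 11.23 for Penk and 10.78 to 11.11 for Gad1. Markers from outside it differed between animals of 1 genotype. Ttr, of the choroid plexus, read 11.36 and 8.97 in WT, 8.11 and 11.53 in CPEB4 GT/+, and 9.39 and 11.78 in CPEB4 KO. The mean WASH level of 14 genes of other brain regions and pituitary was 7.77 in WT replicate 1 and 6.73 to 7.13 on the other 5 arrays. Xist was at 10.06 to 10.67 on all 6 WASH arrays.

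Cpeb4 itself was the check of the labels. Its WASH level was 8.73 and 8.75 in the WT animals, 8.20 and 8.40 in CPEB4 GT/+, and 7.45 and 7.74 in CPEB4 KO. The animals of the 3 genotypes did not overlap, with CPEB4 GT/+ between the others. Cpeb4 fell by 1.15 in CPEB4 KO (limma, SE 0.12, adjusted p = 0.00837), to 0.452 of the WT level. Its other 2 probe sets differed by -1.30 and -0.90. The levels left in CPEB4 KO lay above the filter level of 5.52 at 2 of the 3 probe sets and below it at the third. The positions of the 3 probe sets relative to the altered stretch of Cpeb4 were not tested. In INPUT the difference was -1.12 (SE 0.19) and in ELUTED -1.90 (SE 0.28). The other 2 probe sets differed by -1.58 and -0.96 in INPUT, and by a smaller -0.90 and -0.72 in ELUTED.

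Besides Cpeb4, 5 genes passed the test in WASH. Apold1, Klf2 and the pseudogene Pisd-ps3 fell in CPEB4 KO, and Matn2 and Cdhr1 rose. In all, limma called 6 of 12822 genes at an adjusted p under 0.05 (0.0468%), 2 higher (0.0156%) and 4 lower (0.0312%). At an unadjusted p under 0.05 there were 748 genes (5.83%), 507 higher (3.95%) and 241 lower (1.88%), against 641 that chance gives. The animals of both genotypes did not overlap for 36.8% of the genes tested. For 33 genes (0.257%) the difference was also at least 0.58, 15 on the higher side (0.117%) and 18 on the lower side (0.14%). The median difference of all genes tested was 0.03, with a median SE of 0.112. With 2 animals on each side, the smallest p of an exact two-sided test is 0.333.

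**Figure D1:**
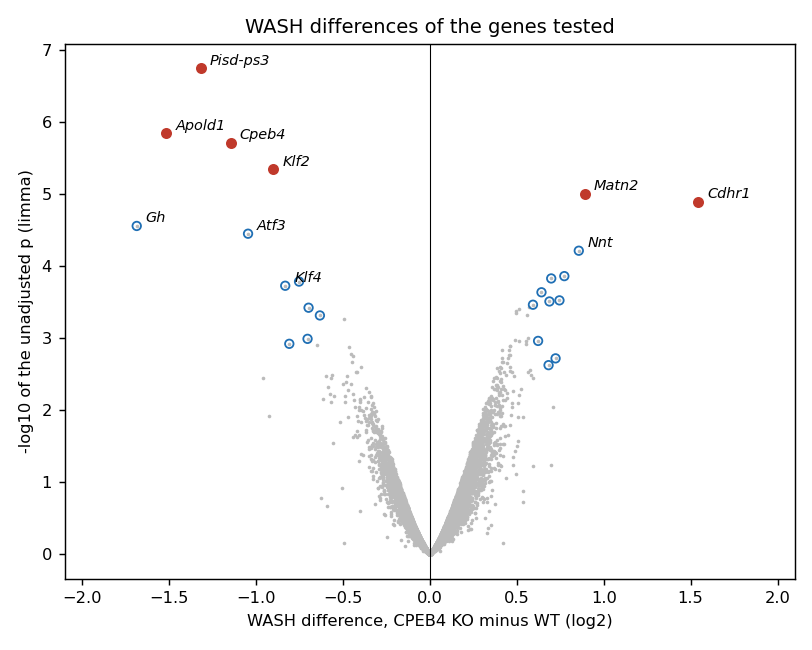
WASH difference of each of the 12822 genes tested, CPEB4 KO minus WT (log2, x axis), against -log10 of limma's unadjusted p (y axis); filled red points are the 6 genes past the adjusted test and blue rings the other genes named by the rule. The 4 called genes on the left lie between -1.52 and -0.90 and the 2 on the right at 0.89 and 1.54.

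Of the 4 genes called lower, Apold1 and Klf2 belong to the immediate early and activity-induced list. Apold1, an early-response gene known from vascular endothelium, read 9.68 and 9.51 in WT, 9.45 and 9.18 in CPEB4 GT/+, and 7.84 and 8.32 in CPEB4 KO. Both CPEB4 KO animals lay more than 0.8 below every other animal. Apold1 fell by 1.52 (SE 0.16, limma adjusted p = 0.00837), to 0.350 of the WT level. Klf2, a transcription factor that endothelium switches on under blood flow, read 7.48 and 7.43 in WT, 7.19 and 7.01 in CPEB4 GT/+, and 6.52 and 6.58 in CPEB4 KO. The CPEB4 GT/+ animals lay between the other genotypes without overlap. Klf2 fell by 0.90 (SE 0.11, limma adjusted p = 0.0146), to 0.536 of the WT level.

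Another 3 early-response genes had lower WASH values in CPEB4 KO but missed the threshold. Atf3, a stress-induced transcription factor, read 6.97 and 6.86 in WT, 6.14 and 6.61 in CPEB4 GT/+, and 5.73 and 6.02 in CPEB4 KO, a difference of -1.05 (SE 0.15, limma adjusted p = 0.0573). Its CPEB4 GT/+ animals again lay between the others. Klf4, a transcription factor related to Klf2, read 7.92 and 7.97 in WT, 7.62 and 8.15 in CPEB4 GT/+, and 7.08 and 7.14 in CPEB4 KO (-0.83, SE 0.15, limma adjusted p = 0.186). Ccn1, a secreted matrix protein of the early response, read 8.10 and 7.69 in WT, 7.84 and 7.65 in CPEB4 GT/+, and 7.21 and 7.18 in CPEB4 KO (-0.70, SE 0.14, limma adjusted p = 0.256). For these 2 genes the CPEB4 GT/+ animals overlapped with WT. The second probe sets of Klf4 and Ccn1 differed by -0.69 and -1.01.

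The promoters of Apold1, Klf2 and Atf3 are shown because these genes were low together in CPEB4 KO. They run from 250 bases before to 50 bases after the start site in RefSeq (GRCm38.p6), 5′ to 3′ on the gene's strand: chr6:134981751-134982050 (plus) for Apold1, chr8:72318812-72319111 (plus) for Klf2 and chr1:191183284-191183583 (minus) for Atf3. Capitals mark TGACG on either strand, read as CGTCA where it lies on the other strand, the core of the cAMP response element.
Apold1: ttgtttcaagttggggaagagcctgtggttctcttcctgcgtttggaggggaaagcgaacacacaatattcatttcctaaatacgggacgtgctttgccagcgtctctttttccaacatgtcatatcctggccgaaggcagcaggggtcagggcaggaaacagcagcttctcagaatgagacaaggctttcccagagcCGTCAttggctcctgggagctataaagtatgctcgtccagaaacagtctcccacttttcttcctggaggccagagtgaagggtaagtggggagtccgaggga
Klf2: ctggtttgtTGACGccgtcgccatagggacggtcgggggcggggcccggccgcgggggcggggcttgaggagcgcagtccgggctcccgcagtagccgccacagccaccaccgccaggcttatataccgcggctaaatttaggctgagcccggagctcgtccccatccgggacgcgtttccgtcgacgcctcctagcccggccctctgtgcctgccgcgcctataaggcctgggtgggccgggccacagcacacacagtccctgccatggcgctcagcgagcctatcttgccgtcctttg
Atf3: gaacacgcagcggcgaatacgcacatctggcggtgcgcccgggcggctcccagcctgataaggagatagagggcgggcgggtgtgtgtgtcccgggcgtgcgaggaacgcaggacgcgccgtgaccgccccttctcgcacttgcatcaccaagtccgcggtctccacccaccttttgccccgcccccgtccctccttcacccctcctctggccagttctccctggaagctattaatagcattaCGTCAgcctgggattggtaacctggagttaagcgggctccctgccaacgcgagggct
Counted from the start site, the match covers positions -52 to -48 in Apold1, -241 to -237 in Klf2 and -7 to -3 in Atf3.

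All 5 early-response genes named above, Klf4 and Ccn1 included, hold TGACG within this window. TGACG is found in 20.8% of the 32851 RefSeq promoters. Of the 31 immediate early and activity-induced genes with a promoter listed, 22 hold it, the 5 genes named above included. The 20.8% counts promoters and the 22 counts genes, so these shares cannot be compared directly. The full element TGACGTCA (1.79% of promoters), the AP-1 motif TGACTCA or TGAGTCA (5.2%) and the CArG box (1.63%) were in none of the 5 windows. TATAAA (13.6%) was found in Apold1 and Ccn1, and CCACCC (31.5%) in Klf2 and Atf3. All 6 motifs were searched on both strands, TGACG is contained in TGACGTCA, and the 5 genes were chosen after their values were seen, so the matches only describe these windows.

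The other early-response genes did not follow. Of the 41 listed immediate early and activity-induced genes 37 passed the filter on low values, with 0 called higher and 2 called lower, Apold1 and Klf2. The animals did not overlap for 8 on the higher side and 10 on the lower side, against 22.8% and 14% of all genes. The median difference was 0.015, beside 0.03 for all genes tested. Egr1, the neuronal early transcription factor, read 11.87 and 12.03 in WT and 11.83 and 11.87 in CPEB4 KO, a difference of -0.10 (SE 0.11). Arc, a synaptic early gene, was at 9.97 and 10.21 in WT and 10.38 and 10.41 in CPEB4 KO. The synaptic pentraxin Nptx2 (0.43, SE 0.15) and the activin subunit Inhba (0.37, SE 0.14) had the largest higher values without overlap, both with an adjusted p over 0.7 in limma.

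**Figure D2:**
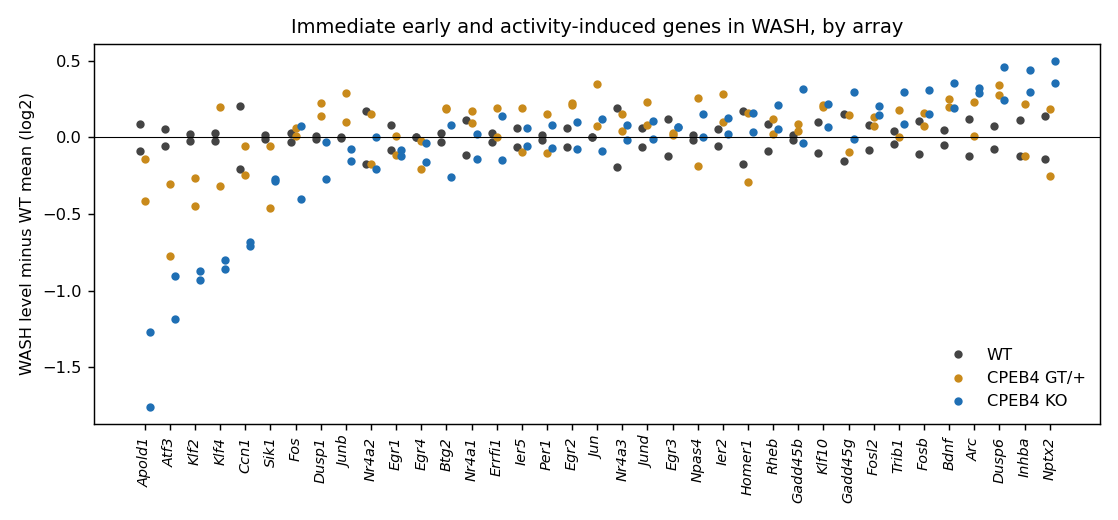
WASH level minus the WT mean (log2, y axis) of the 37 immediate early and activity-induced genes tested, ordered by the CPEB4 KO difference; each point is 1 array, black for WT, ochre for CPEB4 GT/+ and blue for CPEB4 KO. Apold1, Atf3, Klf2, Klf4 and Ccn1 lie 0.70 to 1.52 below WT on average, and the rest within about 0.5 of it.

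Markers of the vessel wall were set beside Apold1 and Klf2, and 21 of the 22 tested lay above 0. The median of all genes tested was itself above 0, at 0.03. The mean WASH level of the 22 endothelial and mural genes tested, of 29 listed, was 8.31 and 8.35 in WT, 8.35 and 8.36 in CPEB4 GT/+, and 8.47 and 8.49 in CPEB4 KO. None was called, and the animals did not overlap for 12 on the higher side and 0 on the lower side, against 22.8% and 14% of all genes. Their median difference was 0.13, and 0.101 to 0.138 without any 1 WT or CPEB4 KO animal. The median of the list was 0.165 in INPUT, -0.03 in ELUTED and -0.026 in WASH relative to INPUT, so the higher values were not particular to WASH. The smooth muscle actin Acta2 read 8.39 and 8.51 in WT and 8.88 and 8.99 in CPEB4 KO (0.49, SE 0.11, limma adjusted p = 0.454), and the pericyte gene Rgs5 9.78 and 9.88 against 10.24 and 10.19 (0.39, SE 0.10). The part of these cells in the values of Apold1 and Klf2 was not tested.

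The steadiest lower gene was Pisd-ps3, a pseudogene of the mitochondrial enzyme that makes phosphatidylethanolamine. It read 11.14 and 10.96 in WT, 10.93 and 11.02 in CPEB4 GT/+, and 9.82 and 9.65 in CPEB4 KO. Here the CPEB4 GT/+ animals were at the WT level and only both CPEB4 KO animals were low. It fell by 1.32 (SE 0.11, limma adjusted p = 0.00233), to 0.401 of the WT level, and its other 2 probe sets differed by -1.50 and -0.92. Probe sets of a pseudogene may also bind transcripts of its near-identical copies, which was not tested. The strain of the animals is not given in the sources used here, and its part in the values of Pisd-ps3 and of Nnt, described further on, was not tested. Gh, the growth hormone of the pituitary, read 7.91 and 7.32 in WT, 5.61 and 6.46 in CPEB4 GT/+, and 5.88 and 5.98 in CPEB4 KO (-1.69, SE 0.24, limma adjusted p = 0.0511). Its 3 other probe sets differed by -1.57, -1.36 and -0.51. Both WT animals stood above the other 4. Other hormone and brainstem or hypothalamic genes stood out in WT replicate 1 alone: Hcrt read 7.89 there and 5.74 to 6.63 on the other WASH arrays, and Ddc 7.66 there and 6.204 to 6.54. Prolactin (Prl) was at 5.91 and 5.12 in WT, below the filter over all arrays, and at 4.38 and 4.43 in CPEB4 KO. The part of such tissue in the Gh value was not tested.

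The remaining genes named on the lower side missed the threshold. They were the fibronectin receptor subunit Itga5 (-0.63, SE 0.13), the ubiquitin ligase Mid1 (-0.81, SE 0.18) and the little described Gm2824 (-0.75, SE 0.13) and 1700109K24Rik (-0.70, SE 0.16), with adjusted p from 0.176 to 0.463 in limma. Their levels were modest: Itga5 read 6.04 and 6.14 in WT and 5.64 and 5.28 in CPEB4 KO, and Mid1 7.88 and 7.85 against 7.32 and 6.79.

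On the higher side Matn2, an adaptor protein of the extracellular matrix, read 6.06 and 5.95 in WT, 6.09 and 6.19 in CPEB4 GT/+, and 6.78 and 7.01 in CPEB4 KO. The CPEB4 GT/+ animals were near WT, and both CPEB4 KO animals stood above them. Matn2 rose by 0.89 (SE 0.12, limma adjusted p = 0.0256), to 1.85 times the WT level. Cdhr1, a cadherin of photoreceptors that is also known from projection neurons of the olfactory bulb, read 6.67 and 6.72 in WT, 7.35 and 7.11 in CPEB4 GT/+, and 7.84 and 8.64 in CPEB4 KO. The 3 genotypes did not overlap, and the CPEB4 KO animals differed by 0.8 between themselves. Cdhr1 rose by 1.54 (SE 0.20, limma adjusted p = 0.0274), to 2.91 times the WT level.

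Of 6 genes of olfactory bulb projection neurons, a list chosen after the values were seen, 3 passed the filter: Cdhr1, Eomes and Doc2g. Eomes read 5.43 and 5.34 in WT, 6.14 and 5.88 in CPEB4 GT/+, and 5.37 and 6.79 in CPEB4 KO. Doc2g read 7.23 and 6.45, 7.28 and 7.28, and 6.97 and 7.70 in the same order. Both were highest in CPEB4 KO replicate 2 and lay within or near the WT range in CPEB4 KO replicate 1, where Cdhr1 was also the lower of the pair. Without Cdhr1 the mean WASH level of the list was 5.13 to 5.31 in WT, 5.28 to 5.48 in CPEB4 GT/+, and 5.17 and 5.67 in CPEB4 KO. Tbx21, Shisa3 and Lhx1 were below the filter level on every WASH array. The part of such tissue in the Cdhr1 value was not tested.

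Nnt, the mitochondrial transhydrogenase that makes NADPH, had the next smallest p on the higher side. It read 9.17 and 9.10 in WT, 9.22 and 9.59 in CPEB4 GT/+, and 9.88 and 10.10 in CPEB4 KO (0.86, SE 0.14, limma adjusted p = 0.0876), and its second probe set differed by 1.08 (SE 0.14) and passed when every probe set was tested on its own (limma adjusted p = 0.0279). Both CPEB4 KO animals stood above the others. A further 9 genes named by the rule differed by 0.59 to 0.77 with adjusted p from 0.174 to 0.597. Among them were the NF-kappaB scaffold Card10 (0.77, SE 0.13), the membrane-cytoskeleton linker ezrin (Ezr, 0.70, SE 0.12), the endothelial GTPase Rhoj (0.69, SE 0.13) and the astrocyte connexin Gjb6 (0.59, SE 0.12). Gjb6 read 6.72 and 6.79 in WT, 6.76 and 7.01 in CPEB4 GT/+, and 7.42 and 7.28 in CPEB4 KO. Abca8a, a lipid transporter (0.75), Dynlt1b, a dynein light chain (0.72), Smim3 (0.68), the vesicle fusion protein Stxbp3 (0.64) and the transcription factor Ets1 (0.62) made up the rest. The other 3 probe sets of Ets1 differed by -0.15, -0.12 and 0.15, so they did not share its direction in 2 of 3 cases.

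**Figure D3:**
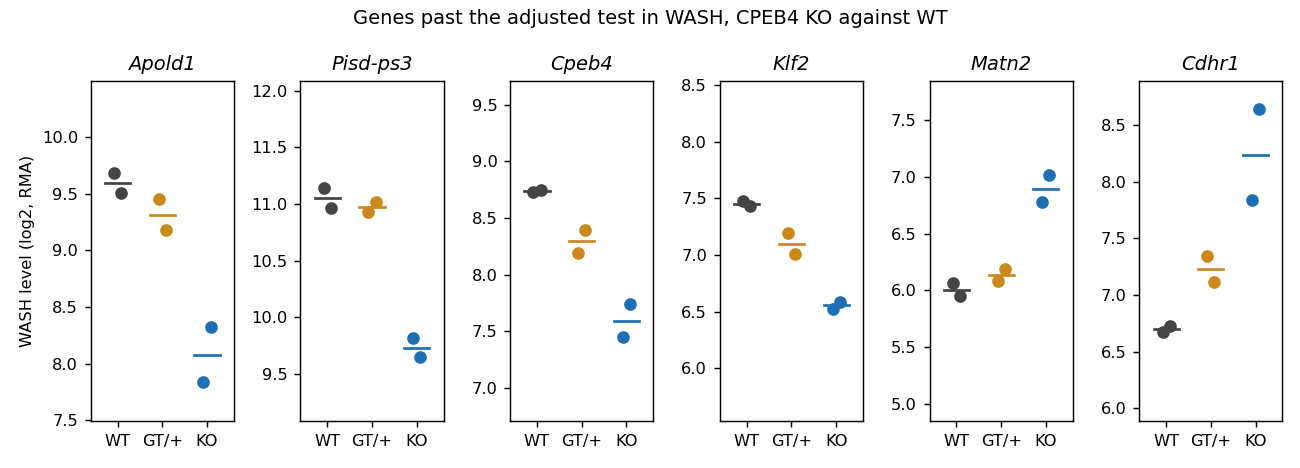
WASH level (log2, y axis, the same span in each panel) of the 6 genes past the adjusted test, by genotype; each point is 1 animal and each line the mean of 2. CPEB4 KO and WT animals do not overlap in any panel, and CPEB4 GT/+ lies between them for Apold1, Cpeb4, Klf2, Matn2 and Cdhr1, but not for Pisd-ps3.

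Most of the calls were lost without 1 animal or another, while the differences kept their side. Pisd-ps3 passed without any 1 of the 6 animals. Without CPEB4 KO replicate 1, Apold1 (-1.27, limma adjusted p = 0.065) and Cpeb4 (-0.999, 0.0738) no longer passed. Klf2 and Matn2 did not pass without any 1 of the WT or CPEB4 KO animals (adjusted p from 0.0578 to 0.307), with differences of -0.93 to -0.87 and 0.77 to 1.01, and Cdhr1 did not pass without WT replicate 1, WT replicate 2 or CPEB4 KO replicate 2 (0.0578 to 0.0957), with differences of 1.52, 1.57 and 1.14. The number of calls was 3 without CPEB4 KO replicate 2 and 12 when either CPEB4 GT/+ animal, which enters only the estimate of the spread, was left out. With the arrays aligned on the hybridisation controls the median of all genes tested moved from 0.03 to 0.251, and 26 genes were called higher and 5 lower.

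The difference in WASH was then set against that in INPUT. In INPUT limma called 0 of 12822 genes (0.0%), with 1404 at an unadjusted p under 0.05 (10.9%), 934 higher (7.28%) and 470 lower (3.67%). A difference of at least 0.58 without overlap was found for 137 genes (1.07%), 122 higher (0.951%) and 15 lower (0.117%). The genes called in WASH lay on the same side in INPUT. Apold1 differed there by -1.40 (SE 0.13, adjusted p = 0.0523), Pisd-ps3 by -1.22 (SE 0.12), Klf2 by -0.71 (SE 0.12) and Cdhr1 by 1.05 (SE 0.16), and Matn2 by a smaller 0.32 (SE 0.13). The INPUT levels of Matn2 were 5.80 and 5.68 in WT and 6.03 and 6.09 in CPEB4 KO. In ELUTED Apold1 differed by -1.93 (SE 0.15, limma adjusted p = 0.0265), Pisd-ps3 by -1.31 and Cdhr1 by 1.18, but Klf2 by only -0.26 (SE 0.17) and Matn2 by 0.13 (SE 0.13). The ELUTED levels of Matn2 were 5.665 and 5.696 in WT and 5.792 and 5.829 in CPEB4 KO. They were close to the filter level of 5.52 and to the highest mean of a nonspecific control probe set, 5.61. The part of these low levels in its smaller differences was not tested. At the probe set read for each gene, Apold1, Pisd-ps3, Cpeb4 and Cdhr1 differed by 1 or more in all 3 fractions of the same animals. This did not hold at every probe set. In ELUTED the others of Cpeb4 differed by -0.90 and -0.72, and in WASH 1 of Pisd-ps3 differed by -0.92.

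The test of WASH against INPUT took the difference between both arrays of an animal and compared it between genotypes. It called 0 of 12822 genes (limma, 0.0%), with 462 at an unadjusted p under 0.05 (3.6%), 218 higher (1.7%) and 244 lower (1.9%), fewer than the 641 that chance gives. A value of at least 0.58 without overlap was found for 64 genes (0.499%), 2 higher (0.0156%) and 62 lower (0.484%). For Cpeb4 the value was -0.03 (SE 0.22), for Pisd-ps3 -0.10 (SE 0.12), for Apold1 -0.12 (SE 0.14) and for Klf2 -0.19 (SE 0.15). It was larger for Matn2 (0.57, SE 0.14), Cdhr1 (0.50, SE 0.15), Atf3 (-0.71, SE 0.20), Klf4 (-0.38, SE 0.13) and Gjb6 (0.38, SE 0.13). For none of these was a WASH difference beyond the INPUT difference shown, with an adjusted p of 1.0 in each case. Atf3 had the widest gap among them: its INPUT levels were 6.39 and 6.09 in WT and 5.78 and 6.04 in CPEB4 KO, a difference of -0.34 (SE 0.14) beside -1.05 in WASH. Its CPEB4 KO levels, 5.73 and 6.02 in WASH, were not far above the filter level of 5.52 in either fraction. Klf4 had no such gap at its second probe set, which differed by -0.69 in WASH and -0.71 in INPUT.

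**Figure D4:**
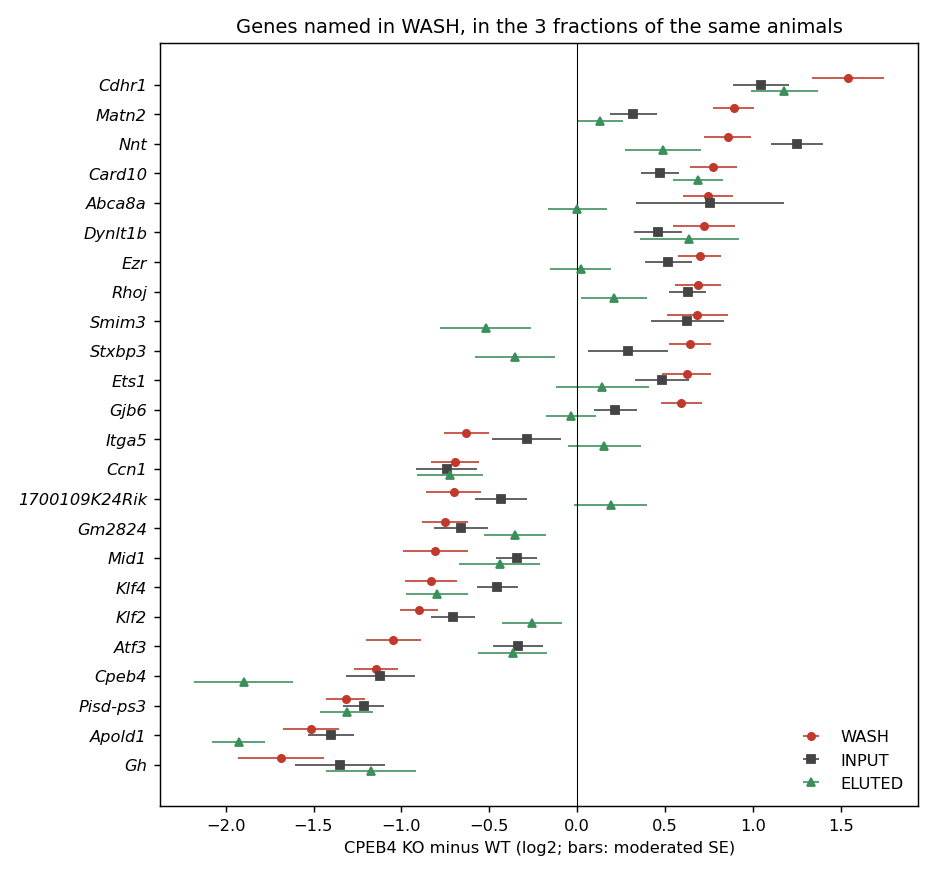
Difference CPEB4 KO minus WT (log2, x axis) of the 24 genes named in WASH, in WASH (red circles), INPUT (black squares) and ELUTED (green triangles) of the same animals; bars are limma's moderated SE. WASH and INPUT lie on the same side for all 24. In ELUTED 9 of the 12 higher and 10 of the 12 lower genes keep that side, and the others, such as Smim3 at -0.52 and Stxbp3 at -0.35, do not. Klf2 at -0.90, -0.71 and -0.26 and Matn2 at 0.89, 0.32 and 0.13 come nearer to 0 in ELUTED. The ELUTED levels of Matn2 were close to the filter level.

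The genes with the smallest p in the WASH against INPUT test mostly had a larger difference in INPUT than in WASH. Of the 12 named on the lower side, 10 had a WASH difference under 0.3 in size, and 11 were higher in INPUT of CPEB4 KO. Biglycan (Bgn), a matrix proteoglycan, read 7.88 and 7.94 in WT and 7.85 and 7.95 in CPEB4 KO in WASH, and 7.26 and 7.36 against 8.20 and 7.86 in INPUT. Its WASH levels were the same to within 0.1 and its INPUT levels did not overlap, which gave a value of -0.73 (SE 0.16, limma adjusted p = 1.0). The vesicle protein Vamp8 (-0.89, SE 0.27) read 8.29 and 8.21 against 8.36 and 8.52 in WASH, and 7.39 and 7.45 against 8.91 and 8.09 in INPUT. CPEB4 KO replicate 1 was the higher of the pair in INPUT for Bgn and Vamp8, and also for the branched-chain amino acid enzyme Dbt (8.37 and 7.76) and for Tmem176a (9.77 and 9.07). Atf3 and the double homeobox gene Duxbl1 (-1.05, SE 0.28) were the exceptions, with most of the value in WASH. Duxbl1 read 6.68 and 5.69 in WT and 5.21 and 5.31 in CPEB4 KO in WASH, and its WT animals lay further apart than the means of both genotypes. Its INPUT means were 5.12 in WT and 5.25 in CPEB4 KO. These means and its CPEB4 KO levels in WASH lay below the filter level of 5.52.

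The others on this side were the retromer-linked GTPase activator Tbc1d5 (-0.78), Rsbn1l (-0.69), the lipid-binding protein Sec14l2 (-0.68), Zfp395 (-0.65), the sialyltransferase St3gal1 (-0.62) and BC052040 (-0.59). Only 2 genes met the rule on the higher side, Adam1a, of the ADAM protease family (0.67, SE 0.17), and Lta4h, an enzyme of leukotriene synthesis (0.59, SE 0.15). Adam1a was lower in INPUT of CPEB4 KO (-0.98, SE 0.11) and read 7.28 and 6.81 in WT and 6.85 and 6.62 in CPEB4 KO in WASH. The 14 genes named here kept their side without either CPEB4 KO animal, but the number of calls moved: without CPEB4 KO replicate 2 limma called 160 genes lower in WASH relative to INPUT and 0 higher, and 260 higher and 9 lower in INPUT (the single CPEB4 KO animal then takes its spread from the other genotypes). Without CPEB4 KO replicate 1 it called 0 in both.

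Of the 5 genes named on the higher side in INPUT, 4 had a smaller difference in WASH at the probe set read for the gene. All 5, and Slc39a2 below, were chosen by their INPUT values, so a smaller WASH difference can come from the choice alone. Nnt differed by 1.25 in INPUT and 0.86 in WASH, but by 1.03 and 1.08 at its second probe set. In the same order the cytochrome oxidase assembly factor Cox18 differed by 0.72 and 0.50 (WASH SE 0.10), the stress peptide Crh by 0.90 and 0.30 (WASH SE 0.17), and the unfolded protein response factor Xbp1 by 0.63 and 0.25 (WASH SE 0.11). Crh read 8.97 and 8.78 in WT, 8.89 and 9.49 in CPEB4 GT/+, and 9.07 and 9.27 in CPEB4 KO in WASH, and the CPEB4 GT/+ animals overlapped with both other genotypes. Cdhr1 alone of these 5 was larger in WASH. On the lower side Slc39a2, a zinc transporter, differed by -1.10 in INPUT and -0.57 in WASH (SE 0.17), where it read 8.48 and 8.02 in WT and 7.86 and 7.50 in CPEB4 KO.

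The poly(A) tail machinery, the group that CPEB4 belongs to, held 46 genes tested of 58 listed. Besides Cpeb4 none was called, and the median difference was 0.061. Its relative Cpeb2 read 9.29 and 9.12 in WT, 9.39 and 9.64 in CPEB4 GT/+, and 9.65 and 9.87 in CPEB4 KO (0.55, SE 0.12, limma adjusted p = 0.454). Cpeb1, which founded the family's name, read 7.92 and 7.64, 8.04 and 8.18, and 8.09 and 8.33 in the same order (0.43, SE 0.13, limma adjusted p = 0.705). Both genes were higher in the CPEB4 KO animals than in WT without overlap, and Cpeb1 overlapped between CPEB4 KO and CPEB4 GT/+. In INPUT the differences were 0.42 and 0.25. In all 18 of the 46 genes lay higher and 3 lower without overlap, against 22.8% and 14% of all genes. The nuclear poly(A) binding protein gene Pabpn1 (-0.09) and the translation repressor gene Paip2 (0.05) were within the spread.

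Genes of the unfolded protein response, the programme that answers misfolded protein in the endoplasmic reticulum, had 43 members tested. None was called, and 36 lay above 0, with a median of 0.133 beside 0.03 for all genes tested. The animals did not overlap for 25 on the higher side and 3 on the lower side, against 22.8% and 14% of all genes. The protease Mbtps2 (0.40, SE 0.13) and the sensor Atf6 (0.29, SE 0.11) were the highest without overlap. Atf6 read 6.71 and 6.79 in WT, 6.97 and 7.02 in CPEB4 GT/+, and 6.94 and 7.14 in CPEB4 KO. Chac1, a target of the pathway's Atf4 arm that breaks down glutathione, went the other way at -0.60 (SE 0.16), with 7.48 and 7.82 in WT and 6.82 and 7.28 in CPEB4 KO. The median of the list in INPUT was 0.168 and in WASH relative to INPUT -0.01.

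Ribosomal and mitochondrial genes were close to the other genes in WASH. The median difference was 0.003 for 68 cytosolic ribosomal protein genes, 0.005 for 69 oxidative phosphorylation subunits, 0.023 for 31 proteasome subunits and 0.051 for 72 mitochondrial ribosomal protein genes. In ELUTED of the same animals the medians were -0.681, -0.703, -0.532 and -0.324, beside -0.008 for all genes tested. The CPEB4 GT/+ animals also differed from each other in ELUTED, with a standard deviation of the difference of 0.422 against 0.171 in WT and 0.24 in CPEB4 KO. Cox6c, for example, read 11.36 and 11.52 in WT, 11.53 and 10.58 in CPEB4 GT/+, and 10.75 and 9.96 in CPEB4 KO there. The part of such differences between arrays in the ELUTED medians was not tested. None of the genes of these lists was called in WASH or in ELUTED, and all members lay between -0.29 and 0.30 in WASH. The outermost were the ribosomal genes Rplp0 (10.87 and 10.93 in WT, 10.69 and 10.54 in CPEB4 KO) and Rpl13 (8.64 and 8.65 in WT, 9.07 and 8.81 in CPEB4 KO). The catalytic and structural subunits of the respiratory chain and ATP synthase stayed between -0.13 and 0.15.

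Neuronal lists gave no call either. The medians were 0.149 for 20 striatal projection neuron genes, 0.15 for 22 neuropeptides, 0.139 for 20 interneuron genes and 0.075 for 19 excitatory cortical genes, beside 0.03 for all genes tested. They moved with single animals: the neuropeptide median was 0.06 without CPEB4 KO replicate 2 and 0.257 without CPEB4 KO replicate 1, the interneuron median 0.06 without CPEB4 KO replicate 2, the striatal median 0.088 without WT replicate 1, and the excitatory median -0.027 without WT replicate 1. Without overlap 11 striatal genes lay higher and 2 lower, against 22.8% and 14% of all genes. The counts were 8 and 2 for neuropeptides, 7 and 1 for interneuron genes, and 3 and 2 for excitatory genes. The peptide Vip read 9.13 and 9.33 in WT, 9.59 and 9.80 in CPEB4 GT/+, and 9.55 and 9.74 in CPEB4 KO (0.41, SE 0.12). The striatal peptide Tac1 differed by 0.34 and Rgs9, a striatal regulator of dopamine signalling, by -0.44, where CPEB4 KO replicate 2 was at 7.85 and the other 5 animals were at 8.48 to 8.71. The receptor subunit Gabra2 read 9.89 and 10.10 in WT and 10.40 and 10.36 in CPEB4 KO (0.39, SE 0.11). Glutamate receptors had a median of -0.008, and Grin2a, a subunit of the NMDA receptor, read 5.51 and 5.74 in WT and 5.22 and 5.35 in CPEB4 KO (-0.34, SE 0.12).

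Of the 70 autism risk genes tested, of 91 listed, none was called and the median was 0.044. The animals did not overlap for 20 on the higher and 10 on the lower side, against 22.8% and 14% of all genes, so the lower count was near that of all genes. Ptchd1, a patched-domain membrane protein, read 6.42 and 6.51 in WT, 6.78 and 6.65 in CPEB4 GT/+, and 6.87 and 6.87 in CPEB4 KO (0.40, SE 0.10, limma adjusted p = 0.597), with -0.09 in INPUT. The transcription factor Foxp1 was at 0.32 (SE 0.12), though 5 of its 6 other probe sets pointed the other way. Kmt2c, a histone methyltransferase (-0.30, SE 0.12), and the adhesion protein Nlgn1 (-0.25, SE 0.13) were lowest without overlap. The 3 other probe sets of Kmt2c ran from -0.15 to 0.23, and 2 of them pointed the other way.

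Glial lists had medians of 0.034 for 23 astrocyte genes, -0.009 for 23 oligodendrocyte genes and 0.09 for 19 microglia genes. Without overlap 10 astrocyte genes lay higher and 1 lower, against 22.8% and 14% of all genes. For oligodendrocyte genes the counts were 2 and 6, and for microglia genes 10 and 2. The 29 antioxidant and redox genes had a median of 0.077, or 0.0 without CPEB4 KO replicate 2. Among them Sod3, a secreted antioxidant enzyme, read 6.33 and 6.66 in WT, 6.67 and 7.05 in CPEB4 GT/+, and 5.75 and 5.94 in CPEB4 KO (-0.65, SE 0.15, limma adjusted p = 0.463). The CPEB4 GT/+ animals were above WT and CPEB4 KO below it. Its only other probe set pointed the other way. Genes of other brain regions and pituitary had the lowest median, -0.212, which turned to 0.195 without WT replicate 1.

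**Figure D5:**
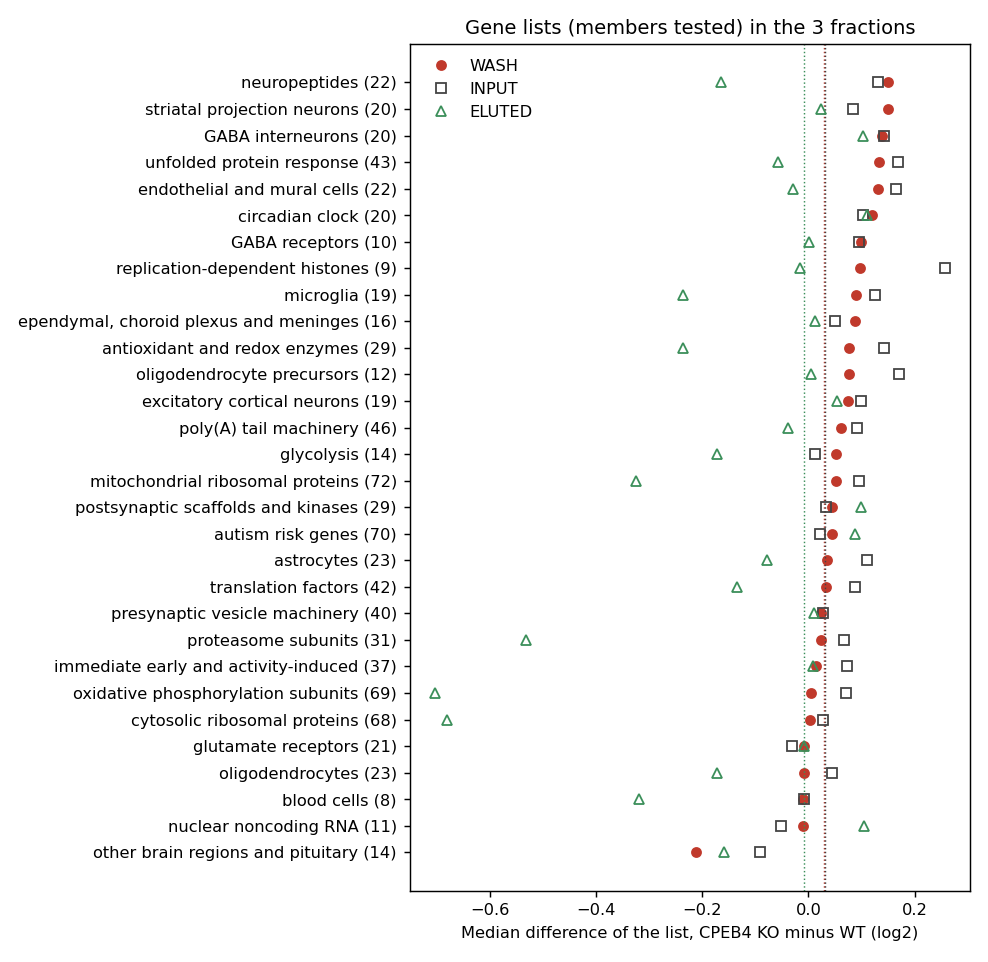
Median difference CPEB4 KO minus WT (log2, x axis) of each gene list with more than 1 member tested (number of members in parentheses), in WASH (red), INPUT (open squares) and ELUTED (open triangles); dotted lines mark the medians of all genes tested. The WASH medians run from -0.212 for other brain regions and pituitary to 0.15 for neuropeptides, and those of oxidative phosphorylation and cytosolic ribosomal proteins are at 0.005 and 0.003.

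Genes next to Cpeb4 were described because alleles near a modified locus can be carried along with it. Of the 30 genes on each side in RefSeq gene order, 39 were tested. None was called, 3 had an unadjusted p under 0.05, and the median was -0.013. The values ran from -0.29 for Sh3pxd2b, a scaffold of cell protrusions, to 0.32 for Acyp2. Without overlap there were 7 higher and 10 lower, against 22.8% and 14% of all genes, among them the peroxisome import factor Pex13 (0.29) and Ccdc85a (0.31), and Gpr75 (-0.23) and the repair glycosylase Mpg (-0.14). The fall of Cpeb4 by 1.15 was not shared by any neighbour tested.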

How the data were processed

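RNA of 6 mice in 3 fractions was measured on 18 arrays. The deposited values are log2 levels per probe set; the submitters' processing notes name RMA as the authors' method and give no version; whether all arrays were normalized together is not given in the sources used here. RMA scales arrays to each other, so differences are relative to the other genes.

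Of 45141 probe sets, 104 controls were set aside, and the 28898 with 1 gene symbol were used (551 had several symbols, 15588 none). By Entrez identifier 28689 matched RefSeq. A gene was read at the probe set whose mean over the 18 arrays was highest, and the lowest 25% of 17097 genes were left out (under 5.52), which left 12822. Genotype means were fitted per fraction, and for WASH minus INPUT per animal, with limma 3.58.1 (lmFit, contrasts.fit, eBayes; duplicateCorrelation with statmod 1.5.0 as an alternative) in R 4.3.3. The 6 arrays of a fraction shared the spread, with 3 residual degrees of freedom. Tests were two-sided, and called means a Benjamini-Hochberg adjusted p under 0.05 over all genes tested. SE is limma's moderated one. Precision is limited by the number of arrays. The fit was tested on simulated data.

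Each group holds 2 animals, so p-values rest on the spread between these. The same replicate numbers in different genotypes did not pair the animals (correlation of same-number deviations in WASH -0.21 to 0.19).

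Named genes are Cpeb4; in WASH and in WASH minus INPUT up to 12 higher and 12 lower (INPUT 5 and 5) with the smallest unadjusted p among genes without overlap and with a difference of at least 0.58, since fewer than 20 genes were called; up to 2 members per list in each direction without overlap and 2 with the highest level; and neighbours of Cpeb4 without overlap. The last genes inside the rule in WASH were Smim3 and Mid1. The comparison, its rule and 31 gene lists were chosen with earlier results of these data known; the olfactory bulb list and Hcrt, Ddc, Ttr, Prl and the promoter genes were chosen after their values were seen. Lists are described by counts and medians, with no test. Promoters come from RefSeq (GRCm38.p6).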

Additional observations from a re-analysis of the deposited data

Results flagged for a closer look

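Probe sets without a gene symbol in the annotation took no part in the comparisons. Tested the same way on the WASH arrays, 4 of 10338 were called in CPEB4 KO against WT (limma over all probe sets above the filter, 0.0387%), 3 higher and 1 lower, beside 12 of 22970 with 1 symbol (0.0522%) and 0 of 469 with several. The probe set with the largest difference read 7.12 and 6.66 in WT, 7.09 and 7.23 in CPEB4 GT/+, and 8.54 and 8.69 in CPEB4 KO, a difference of 1.73 (SE 0.15, adjusted p = 0.00571). Another 2 differed by 1.20 (SE 0.16) and 0.96 (SE 0.13), and the lower one by -1.16 (SE 0.12), from 7.34 and 7.29 in WT to 6.32 and 6.01 in CPEB4 KO. The animals of both genotypes did not overlap for any of the 4. Their genes are not named here.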

How the results depend on the processing

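In WASH 6 genes were called, 2 higher and 4 lower, and none of the 24 genes named there changed side under any alternative that gave it a value. With arrays aligned on the hybridisation controls 31 were called (26 higher, 5 lower), and with only CPEB4 KO and WT arrays 12 (5 and 7). Leaving out 1 animal gave 3 to 12 calls. Other settings gave 4 to 9, and 2 higher and 6 lower with centred arrays. In INPUT the 0 calls became 4 with the lowest 50% of genes left out, 2 with the mean of a gene's probe sets, 3 with centred arrays, 162 with aligned arrays (155 higher, 7 lower), 2 with an intensity trend, 4 with all 18 arrays in 1 fit, and 0 to 269 without 1 animal. In WASH minus INPUT it was 0 in every setting except without CPEB4 KO replicate 2, so leaving out 1 animal gave 0 to 160. With the replicate block WASH had 7 calls (2 higher, 5 lower; Atf3 was the added gene), and INPUT and WASH minus INPUT 0. Pisd-ps3 was called under all 16 alternatives, Apold1 under 15, Cpeb4 under 14 (not with all 18 arrays in 1 fit, adjusted p = 0.398), Cdhr1 under 11, and Matn2 and Klf2 under 10 of the 15 that kept them. Gh and Atf3 passed under 7 of 15, Nnt under 5 of 16. The cause of these changes was not tested. The median SE of a WASH difference was 0.112.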

Other observations

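With every probe set tested on its own, 3 genes not called at the probe set standing for them passed at another one: Nnt, given above, Magi1 and Deptor. Magi1, a junction scaffold, read 6.80 and 6.59 in WT, 6.82 and 6.83 in CPEB4 GT/+, and 7.76 and 8.28 in CPEB4 KO (1.32, SE 0.16, limma adjusted p = 0.0279). Deptor, an inhibitor of the mTOR kinase, read 7.75 and 7.87, 8.03 and 8.22, and 8.72 and 8.70 in the same order (0.90, SE 0.11, limma adjusted p = 0.0279). Magi1 and Deptor were chosen after their values were seen.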
